A study of Mus musculus with 30 samples.

Results

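The genes described here are 10 genes of prostaglandin synthesis, breakdown and reception: *Ptgs1*, *Ptgs2*, *Ptges*, *Ptgis*, *Ptgds*, *Hpgd*, *Ptger1*, *Ptger2*, *Ptger3* and *Ptger4*. They were chosen by name, and all 10 were found among the 25520 gene symbols of one experiment and the 25410 of the other. The cells were of the mouse line IDG-SW3, whose immortality is conditional and which matures in the dish from the late osteoblast to the osteocyte stage. All groups were expanded at 33 °C in medium with interferon-gamma, then moved to 37 °C without it and given ascorbic acid and β-glycerol phosphate to differentiate. In the first experiment 18 libraries of untreated cells covered 6 days of differentiation, from day 3 to day 35 with days 7, 14, 21 and 28 between them. In the second, 12 libraries covered cells given 1,25(OH)2D3 (the active vitamin D hormone, 100 nM) or its ethanol vehicle for 24 h, at day 3 or at day 35. Each group held 3 libraries, called biological replicates by the submitters, all from this single line. Levels are in RPKM (reads per kilobase of transcript, scaled for library depth) for untreated cells and in CPM (counts scaled to a common library size by TMM, not divided by length) for the hormone experiment, as mean ± SD, and log2 changes are ± SE. The experiments used different library kits, so no level was tested between them.

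Prostaglandins are made when a phospholipase frees arachidonic acid and the cyclooxygenases, COX-1 (*Ptgs1*) and the inducible COX-2 (*Ptgs2*), turn it into the intermediate prostaglandin H2. Terminal synthases then make the separate products: *Ptges* encodes the microsomal synthase of prostaglandin E2, *Ptgis* the synthase of prostacyclin and *Ptgds* the lipocalin-type synthase of prostaglandin D2. *Hpgd* encodes the dehydrogenase that inactivates prostaglandins, and *Ptger1* to *Ptger4* encode the receptors EP1 to EP4 of prostaglandin E2. In bone, COX-2 and prostaglandin E2 are known for their part in the response to loading, and prostaglandin E2 acts on osteoblasts mainly through EP2 and EP4.

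*Ptgs2* and *Ptges* code for enzymes of successive steps, and they were the members whose response to the hormone differed between day 3 and day 35. The 250 bases before the RefSeq start of each gene (GRCm38.p6), read 5′ to 3′ on the strand of the gene, are shown so that they can be set side by side, with motif matches in capitals. The *Ptgs2* sequence is chr1:150099781-150100030 on the plus strand, and the *Ptges* sequence is chr2:30903298-30903547 on the minus strand.
Ptgs2: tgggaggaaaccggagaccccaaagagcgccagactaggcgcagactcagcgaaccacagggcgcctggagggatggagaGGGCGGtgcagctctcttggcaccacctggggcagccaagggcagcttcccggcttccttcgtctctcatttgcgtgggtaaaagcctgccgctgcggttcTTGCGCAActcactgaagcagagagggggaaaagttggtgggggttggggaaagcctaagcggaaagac
Ptges: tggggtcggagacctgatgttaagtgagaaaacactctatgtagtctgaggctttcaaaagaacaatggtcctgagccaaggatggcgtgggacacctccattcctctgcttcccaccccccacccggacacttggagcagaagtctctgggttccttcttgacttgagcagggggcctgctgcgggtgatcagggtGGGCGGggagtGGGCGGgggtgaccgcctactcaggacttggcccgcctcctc

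Motifs were searched on both strands in the same 250 bases of the 8 members that the RefSeq promoter table holds. TTNNGCAA, the core of C/EBP sites, matched in *Ptgs2* alone among the 8, as TTGCGCAA from 69 to 62 bases before the start. It matched in 9.56% of 32851 promoters of that length. GGGCGG, the core of GC boxes, matched in 5 of the 8 members and in 32.7% of all promoters. It lay from 170 to 165 bases before the start of *Ptgs2*, and from 53 to 48 and from 42 to 37 before that of *Ptges*. TGACG (17.8% of all promoters), CACGTG (6.02%), TATAAA (12.4%) and the DR3 vitamin D element (0.0396%) matched in none of the 8. In GENCODE a further *Ptges* transcript starts upstream, at base 30929863 of chromosome 2, so the *Ptges* window lies within the annotated gene. A further *Ptgs2* transcript starts downstream there, at base 150100332 of chromosome 1. Bases past the RefSeq starts were not searched, so the absence of a motif holds for these 250 bases only. On that annotation *Ptgs2* spans 150100031 to 150108227 on chromosome 1 and *Ptges* 30889471 to 30929863 on chromosome 2.

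The hormone libraries held 22062866 to 54325515 counts. The steps between low RPKM values gave the reads behind each untreated library, estimated at 6310000 to 12890000, in which ribosomal RNA made up 71.6% to 88.4% of the summed RPKM. Counts of *Cyp24a1*, the enzyme gene that the hormone induces, matched the labels, at 15 against 685 over the 3 libraries a group at day 3 and 4 against 10285 at day 35. Of 13 osteoblast and osteocyte markers, 6 or 7 averaged at least 1 RPKM on each untreated day, among them *Col1a1*, *Alpl* and *Bglap*, while the osteocyte markers *Dmp1* and *Sost* were below that. In the hormone experiment, a different unit, 13 averaged at least 1 CPM in day 35 vehicle cells and 11 in each other group. *Dmp1* was among them in every group, and *Mepe* and *Sost* in day 35 vehicle cells alone. The summed level of 5 mast cell markers lay at 0 to 0.058 RPKM in untreated libraries and at 0 to 1.27 CPM in the hormone experiment. The sum of 6 macrophage markers, with *Emr1* at 0 on all days, lay at 0.052 to 1.08 RPKM, and that of 5 endothelial markers at 0 to 0.165 RPKM. Of the day 3 hormone libraries, replicate 3 stood apart in adipocyte genes, with 3740 counts of *Fabp4* against 23 and 37. All 3 day 3 hormone libraries carried more reads of olfactory receptor genes, at 0.0501% to 0.0734% of counts against 0.00401% to 0.00552% in day 3 vehicle libraries, and so did replicate 2 of the day 35 hormone group (0.0425%). In the hormone experiment the macrophage sum lay at 3.34 to 6.34 CPM in vehicle and 5.67 to 8.07 in hormone libraries of day 3, and at 26 to 30 and 30.9 to 39 CPM at day 35, with *Ptprc* and *Itgam* at 0 in every group. *Lyz2* was the only macrophage marker that averaged at least 1 CPM at day 35. At day 3 *Cd68* did so too in both groups, and *Csf1r* in hormone cells, so the higher sum at day 35 was not shared by these markers. The endothelial sum was 2.43 to 6.25 CPM in vehicle and 8.18 to 9.28 in hormone libraries of day 3, then 1.64 to 3.46 and 2.39 to 5.97 at day 35, with *Pecam1* at 0. The sum of 5 adipocyte markers was 1.83 to 3.92 CPM in vehicle and 2.66 to 160 in hormone libraries of day 3, then 9.52 to 15.6 and 19.1 to 36.7 at day 35. In untreated libraries that sum was 0 to 2.6 RPKM, with the highest value on day 28. The part of these sums in the age and hormone changes of the members was not tested.

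*Ptgs2* had one of the highest levels of the 10 genes at day 3 and fell within days. In untreated cells it read 51.5, 62.6 and 62.1 RPKM at day 3 against 3.07, 3.32 and 3.44 on day 7, and the later libraries lay between 0.654 and 2.43. No later library came near a day 3 library. On the log2(RPKM + 0.5) scale the change was −3.97 ± 0.23 by day 7 (15.6-fold lower, limma adjusted p = 1.04e-09) and −5.43 ± 0.23 by day 35 (adjusted p = 5.87e-12). The median change of the 9933 genes tested was 0.23 and −0.69. Between day 7 and day 35 no single step from one sampling day to the next passed the test. Day of culture and time since interferon-gamma and the lower temperature ended cannot be told apart here. In bulk libraries such as these, fewer cells of a type and less RNA per cell cannot be told apart either.

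*Ptgs1* fell with it from a lower start. Its libraries read 2.22, 4.48 and 4.83 RPKM on day 3, 1.05, 1.54 and 1.37 on day 7, then 0.966, 2.26 and 1.57 on day 14. Later values were 0.589, 0.829 and 1.02 RPKM on day 21, 0.449, 0.56 and 0.627 on day 28, then 0.446, 0.261 and 0.254 on day 35. Replicate 1 was the lowest of day 3 and still lay above all libraries of days 7, 21, 28 and 35, though not above the highest of day 14 (2.26). The log2 change was −1.20 ± 0.26 at day 7 (limma adjusted p = 0.00234) and −2.35 ± 0.26 at day 35 (adjusted p = 3.29e-07). Per length, *Ptgs2* stood above *Ptgs1* on each of the 6 days, from 58.7 ± 6.23 against 3.85 ± 1.42 RPKM at day 3 to 0.898 ± 0.377 against 0.320 ± 0.109 at day 35 (n = 3 each).

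*Ptges* took another course: up early, down late. It read 3.35, 3.49 and 2.45 RPKM on day 3, 8.21, 7.39 and 8.28 on day 7, then 9.31, 8.37 and 12.4 on day 14. It went on to 15.5, 11.6 and 7.8 RPKM on day 21, 10.7, 6.03 and 6.26 on day 28, then 4.93, 3.07 and 2.48 on day 35. All libraries of days 7 to 28 lay above those of day 3, and the day 35 libraries overlapped them. The log2 change against day 3 was 1.24 ± 0.28 at day 7 (limma adjusted p = 0.00336), 1.72 ± 0.28 at day 21 (adjusted p = 8.26e-05) and 0.12 ± 0.28 at day 35 (adjusted p = 0.74). Between day 28 and day 35 it fell by 1.03 ± 0.28 (adjusted p = 0.0323).

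*Hpgd*, the inactivating enzyme, was among the most abundant members per length throughout. Its libraries read 52.1, 46.4 and 51.4 RPKM on day 3, 64.5, 54.2 and 65.6 on day 7, then 59, 75.1 and 66 on day 14. They reached 147, 102 and 110 RPKM on day 21, 183, 89.6 and 118 on day 28, then 82.2, 55.3 and 39.6 on day 35. Every library of days 21 and 28 lay above day 3, while day 35 spread across it. The log2 change against day 3 was 1.24 ± 0.28 at day 21 (limma adjusted p = 0.00145), 1.31 ± 0.28 at day 28 (adjusted p = 0.000711) and 0.18 ± 0.28 at day 35 (adjusted p = 0.603), after a fall of 1.13 ± 0.28 from day 28 (adjusted p = 0.0209).

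The late falls of *Ptges* and *Hpgd* came with a shift of the whole table, whose median change over the same step was −0.40. After each library was centred on its median, *Hpgd* still passed between day 28 and day 35 (−0.71, limma adjusted p = 0.0271) and *Ptges* did not (−0.61, adjusted p = 0.178). Both genes then passed as higher at day 35 than at day 3, *Hpgd* by 1.00 (adjusted p = 0.000109) and *Ptges* by 0.94 (adjusted p = 0.00219). The run of each untreated library was read from the number in its deposited file name and taken as the sequencing run. Neither call held with the run in the model, which leaves day 35 to its replicate 1 (−0.77 for each gene). Run 246 held replicates 2 and 3 of day 35 and no other library. Within run 230, which held replicate 1 of each day, *Hpgd* went from 183 to 82.2 RPKM and *Ptges* from 10.7 to 4.93 RPKM between day 28 and day 35. The *Hpgd* step failed without day 28 replicate 1 (−0.86, adjusted p = 0.142) or 3 (−1.17, adjusted p = 0.0532) and without day 35 replicate 2 (−1.12, adjusted p = 0.0636) or 3 (−0.88, adjusted p = 0.105). The *Ptges* step failed without the same libraries, at −0.78, −1.15, −0.98 and −0.85 (adjusted p = 0.197, 0.0574, 0.0951 and 0.152). With only the libraries compared in the fit both failed, *Hpgd* at −1.13 (limma adjusted p = 0.164) and *Ptges* at −1.03 (adjusted p = 0.18). *Ptges* also failed with quantile normalization (−0.55, adjusted p = 0.23), rescaling to rows other than ribosomal RNA (−0.73, adjusted p = 0.0772) or no filter (−1.03, adjusted p = 0.0581).

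*Ptgis*, the prostacyclin synthase gene, was the one member that was highest on the last day. It read 0.029, 0.254 and 0.120 RPKM at day 3, which the size of 1 read in each library puts at 1, 9 and 4 reads. At day 14 there were 10, 0 and 2 reads, at day 21 0.973, 0.853 and 0.376 RPKM, at day 28 3.01, 4.84 and 5.68, and at day 35 11.1, 9.18 and 5.49. All libraries of day 28 and day 35 lay above all earlier ones. The log2 change against day 3 was 0.94 ± 0.28 at day 21 (limma adjusted p = 0.0108), 2.96 ± 0.28 at day 28 (adjusted p = 9.03e-08) and 3.80 ± 0.28 at day 35 (adjusted p = 1.92e-09), values that the pseudocount of 0.5 holds down. The rise at day 21 did not pass without replicate 1 of day 3 (0.82, adjusted p = 0.0526) or of day 21 (0.79, adjusted p = 0.0525). The step from day 21 to day 28, 2.02 ± 0.28 (adjusted p = 0.000329), was the largest between successive days after day 7 for any member tested.

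*Ptgds* was listed at 0 in 17 of 18 untreated libraries and at 0.251 RPKM in replicate 2 of day 21. With neither a filter passed nor a second library above 0, nothing can be said of its course beyond that.

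Among the receptor genes, *Ptger2* (EP2) declined over the course. It read 2.96, 3.39 and 3.75 RPKM on day 3, 2.1, 1.57 and 2.08 on day 7, then 2.09, 2.07 and 2.11 on day 14. After that it read 1.39, 1.64 and 1.61 RPKM on day 21, 1.27, 0.524 and 0.364 on day 28, then 0.741, 0.483 and 0.253 on day 35. Day 3 lay above every later library. Against day 3 it changed by −0.92 ± 0.24 at day 21 (limma adjusted p = 0.00539) and −1.99 ± 0.24 at day 35 (adjusted p = 1.06e-06). At day 7 it was −0.68 ± 0.24 (adjusted p = 0.0442), a call that ended without any 1 of the 6 libraries compared (−0.57 to −0.76, adjusted p from 0.0661 to 0.154). It also ended without replicate 2 or 3 of day 14 or day 21 or replicate 2 of day 35 (−0.68, adjusted p from 0.0525 to 0.055), with a pseudocount of 0.1 (−0.79, adjusted p = 0.112), and once sequencing run was a term (−0.66, adjusted p = 0.0508). At day 14 it was −0.57 ± 0.24 (adjusted p = 0.0825), which passed without day 28 replicate 1 (−0.57, adjusted p = 0.0312). It also passed in centred (−0.56, adjusted p = 0.0227), quantile-normalized (−0.55, adjusted p = 0.029) or rescaled libraries (−0.64, adjusted p = 0.0219), with a pseudocount of 1 (−0.49, adjusted p = 0.0438), and when only the libraries compared were fitted (−0.57, adjusted p = 0.0306). Without that library the step from day 21 to day 28 passed as well (−1.12, adjusted p = 0.00638, against −0.81 and 0.125 with it).

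Of the 4 EP receptor genes, *Ptger1* (EP1) had the highest values, and these are uncertain. Whether strand was used in counting is not given in the sources used here, so its reads cannot be told apart from any that arose on the opposite strand. *Ptger1* read 6.92, 11.5 and 10 RPKM on day 3, 8.7, 16.5 and 16.2 on day 7, then 8.3, 13 and 18.5 on day 14. It read 8.53, 10.6 and 14 RPKM on day 21, 5.88, 5.93 and 6.89 on day 28, then 4.44, 7.64 and 4.52 on day 35. Days 3 and 35 overlapped. The log2 change at day 35 was −0.74 ± 0.31 (limma adjusted p = 0.0492). After centring the direction of *Ptger1* turned (0.09, adjusted p = 0.819). The call ended with quantile normalization (−0.08, adjusted p = 0.839) or rescaling to rows other than ribosomal RNA (−0.33, adjusted p = 0.321). It ended as well with a pseudocount of 1 (−0.69, limma adjusted p = 0.0523), no filter (−0.74, adjusted p = 0.0758) or only the libraries compared in the fit (−0.74, adjusted p = 0.0551). With run as a term, which leaves day 35 to its replicate 1, the change was −0.54. The call also ended without replicate 2 or 3 of day 3 or replicate 1 or 3 of day 35 (−0.59 to −0.69, adjusted p from 0.121 to 0.17), and without any 1 of 8 libraries of other days (days 7, 21 and 28, replicate 2 or 3, day 28 replicate 1 and day 14 replicate 2; −0.74, adjusted p from 0.0506 to 0.0575).

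*Ptger4* (EP4) missed the filter of 1 RPKM in 3 libraries and was not tested. Its libraries read 0.722, 0.781 and 1.08 RPKM on day 3, 0.211, 0.184 and 0.22 on day 7, then 0.203, 0.183 and 0.392 on day 14. They read 0.515, 0.365 and 0.298 RPKM on day 21, 0.765, 0.497 and 0.444 on day 28, then 0.356, 0.161 and 0.078 on day 35. Replicate 1 of day 28 lay within the range of day 3, and the other later libraries lay below it. *Ptger3* (EP3) was not tested either. It stood at 0 in 11 of 18 libraries, and the other values came to 1 to 6 reads a library and 14 reads in all.

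**Figure D1:**
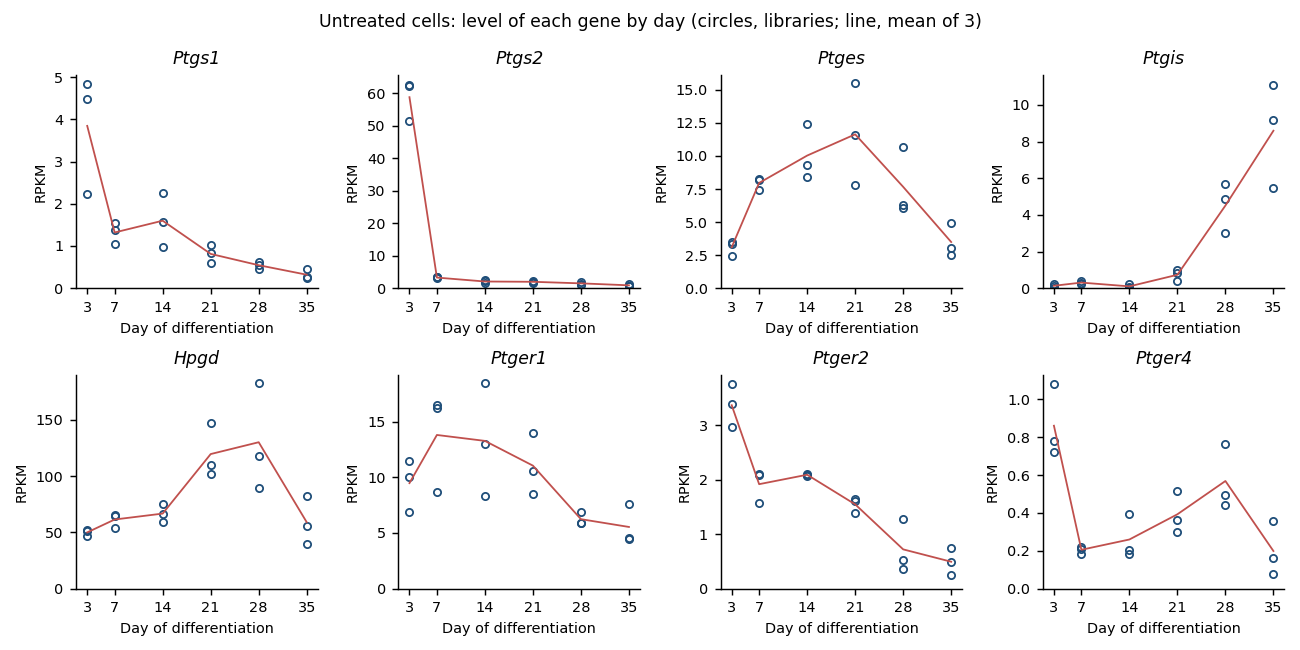
Level in RPKM (y axis, from 0, own scale for each gene) against day of differentiation (x axis) in untreated cells, with a circle per library and a line through the mean of 3. *Ptgs2* drops from 58.7 to 3.28 RPKM between days 3 and 7, *Ptges* and *Hpgd* peak in the middle of the course, and *Ptgis* climbs to 8.58 RPKM at day 35.

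Of the 7 members that passed the filter, *Ptges* was called higher and *Ptgs1*, *Ptgs2* and *Ptger2* lower at day 7, where 25.7% of all genes tested were called (15.8% higher, 9.84% lower). At day 14 there were 3 calls, *Ptges* higher and *Ptgs1* and *Ptgs2* lower (29.7% of all genes, 14.4% higher and 15.3% lower). At day 21 there were 6, with *Ptges*, *Ptgis* and *Hpgd* higher and *Ptgs1*, *Ptgs2* and *Ptger2* lower (37.0% of all genes, 12.9% higher and 24.1% lower), and the same 6 at day 28 (41.5%, 10.4% higher and 31.2% lower). At day 35 there were 5, *Ptgis* higher and *Ptgs1*, *Ptgs2*, *Ptger1* and *Ptger2* lower (57.1% of all genes, 5.63% higher and 51.5% lower), so the count of 5 in 7 is to be read against a large background. The median log2 change of the 7 at day 35 was −0.74, beside −0.69 over all genes. Most of those genes were lower as listed, 559 higher and 5117 lower, against 2934 higher and 2139 lower after centring. The same scaling moved the split from 1280 and 2391 to 2661 and 2150 at day 21, and from 1029 and 3096 to 2847 and 2180 at day 28. Quantile normalization moved it from 1574 and 977 to 1663 and 1571 at day 7. In centred libraries the day 35 change was −4.61 for *Ptgs2* (limma adjusted p = 5.17e-11), −1.53 for *Ptgs1* (adjusted p = 6e-05), −1.16 for *Ptger2* (adjusted p = 6.55e-05) and 4.62 for *Ptgis* (adjusted p = 5.65e-09). Sequencing run as a term gave −5.57, −1.67, −1.69 and 4.31 for these 4 genes. Run 246 held only replicates 2 and 3 of day 35, so these values rest on day 35 replicate 1.

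From one sampling day to the next the members gave 4 calls from day 3 to day 7, as above, and none of 7 from day 7 to day 14 (2.87% of all genes by limma, 0.433% higher and 2.44% lower) or from day 14 to day 21 (0.634%, 0.272% higher and 0.362% lower). At an unadjusted limma p under 0.05 there was 1 member in the first of these steps, *Ptgs2*, and 3 in the second, *Hpgd*, *Ptgis* and *Ptgs1*. The percentages here are for adjusted p. The share of all genes under the unadjusted threshold is not given, so these members have no background to be read against. There was 1 call from day 21 to day 28, *Ptgis* (1.24%, 0.826% higher and 0.413% lower), and 2 from day 28 to day 35, *Hpgd* and *Ptges* (7.98%, 0.151% higher and 7.83% lower). Centring moved the split of all genes from 43 higher and 242 lower to 205 and 330 for day 14 against day 7, and from 15 and 778 to 126 and 203 for day 35 against day 28. After centring, *Hpgd* (1.03, limma adjusted p = 0.00306) and *Ptgis* (1.22, adjusted p = 0.049) passed as higher at day 21 than at day 14. *Ptgis* at day 35 against day 28 was 0.84 (adjusted p = 0.0602) and passed after centring (1.27, adjusted p = 0.0307), quantile normalization (1.27, adjusted p = 0.0132), rescaling (1.17, adjusted p = 0.0167) or with a pseudocount of 1 (0.78, adjusted p = 0.0418).

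The order of the members per length turned over with time. In untreated cells of day 3, *Ptgs2* (58.7 ± 6.23 RPKM) and *Hpgd* (50.0 ± 3.13) led, and their libraries overlapped. *Ptger1* followed (9.48 ± 2.33), then *Ptgs1* (3.85 ± 1.42), *Ptger2* (3.37 ± 0.393) and *Ptges* (3.10 ± 0.562), which overlapped each other, then *Ptger4* (0.861 ± 0.193) and *Ptgis* (0.134 ± 0.113). At day 35 *Hpgd* (59.0 ± 21.6) stood alone, followed by *Ptgis* (8.58 ± 2.84), *Ptger1* (5.53 ± 1.82) and *Ptges* (3.50 ± 1.28), each overlapping the next. *Ptgs2* (0.898 ± 0.377), *Ptger2* (0.492 ± 0.244), *Ptgs1* (0.320 ± 0.109) and *Ptger4* (0.198 ± 0.143) came last among those above 0.1 RPKM, again with overlap between neighbours.

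In the hormone experiment *Ptgs2* led the member list in day 3 vehicle cells and was low in those given 1,25(OH)2D3 for 24 h. All 3 hormone libraries of day 3 also held more olfactory reads than the vehicle ones. For every member, the hormone and the source of those reads cannot be told apart at day 3. The vehicle libraries of day 3 read 1568, 1675 and 1897 CPM and the hormone libraries 21.1, 21.9 and 21.7 CPM, from 64267, 74282 and 82716 counts against 598, 774 and 789. The groups were far apart, and the hormone libraries lay within 1 CPM of each other. The log2 change was −6.31 ± 0.25 (79.5-fold lower, edgeR adjusted p = 1.4e-09), beside a median change of 0.26 over the 20055 genes tested. The change ranged from −6.44 to −5.92 over 19 alternatives, which included subtraction of the olfactory background and leaving out each library. That subtraction is small beside these counts and does not bear on where the olfactory reads came from.

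At day 35 *Ptgs2* showed no such difference. Vehicle libraries read 38.0, 20.1 and 22.0 CPM and hormone libraries 33.2, 26.7 and 31.5 CPM, which overlapped. The log2 change was 0.19 ± 0.20 (95% interval −0.24 to 0.62, edgeR adjusted p = 0.77). The response at day 35 differed from that at day 3 by 6.50 ± 0.31 (adjusted p = 1.75e-08). The day 3 hormone level, 21.5 ± 0.435 CPM, stood near that of vehicle cells at day 35, 26.7 ± 9.81 CPM, with the day 35 range of 20.1 to 38.0 CPM spanning it.

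*Ptges* rose with the hormone at both ages, and by more in late cells. It read 51.4, 50.0 and 50.0 CPM in vehicle and 88.9, 104 and 103 CPM in hormone libraries at day 3, then 94.6, 76.9 and 84.9 CPM against 351, 391 and 386 CPM at day 35. The groups did not overlap at either age. The log2 change was 0.97 ± 0.13 at day 3 (1.96-fold, edgeR adjusted p = 0.000164) and 2.14 ± 0.13 at day 35 (4.40-fold, adjusted p = 2.58e-07), and the difference between them was 1.17 ± 0.18 (adjusted p = 0.000967). Over the alternatives the response ranged from 0.87 to 1.36 at day 3 and from 2.12 to 2.24 at day 35.

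*Ptgs1* fell with the hormone at day 3, by much less than *Ptgs2*. Its libraries read 51.9, 72.5 and 54.2 CPM in vehicle and 30.3, 31.9 and 27.9 CPM in hormone cells, with no overlap. The log2 change was −0.99 ± 0.22 (edgeR adjusted p = 0.00825), and −0.60 (adjusted p = 0.0619) when libraries were scaled by their size alone. At day 35 the values were 42.6, 25.5 and 27.9 CPM against 35.7, 21.7 and 26.8 CPM, and the change was −0.19 ± 0.22 (95% interval −0.66 to 0.28, adjusted p = 0.793). The difference between the responses was 0.80 ± 0.31 (adjusted p = 0.14). It passed without day 35 vehicle replicate 1 (1.06, adjusted p = 0.0399) or day 35 hormone replicate 2 (1.05, adjusted p = 0.0268).

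*Ptgis* and *Hpgd* were not called under the hormone. *Ptgis* read 0.854, 0.203 and 0.849 CPM in vehicle and 1.06, 0.935 and 0.659 CPM in hormone cells at day 3. The olfactory rate would give 11.0 to 15.3 counts on its length in the day 3 hormone libraries, where 24 to 33 were counted. At day 35 *Ptgis* read 89.4, 140 and 109 CPM against 52.5, 79.1 and 69.7 CPM, the hormone libraries below the vehicle ones. The day 35 change was −0.75 ± 0.29 (95% interval −1.36 to −0.14, edgeR adjusted p = 0.212). It passed only without replicate 2 of day 3 vehicle, a library outside the comparison that shares its fit (−0.75, adjusted p = 0.0345). For *Hpgd* the changes were −0.21 ± 0.18 at day 3 (95% interval −0.60 to 0.17) and −0.15 ± 0.18 at day 35 (−0.54 to 0.23).

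Of the 4 EP receptor genes, *Ptger4* was called with the hormone, at day 3 and from few reads. It had 101, 157 and 103 counts in vehicle and 13, 16 and 17 in hormone libraries, or 2.46, 3.54 and 2.36 CPM against 0.458, 0.453 and 0.467 CPM. On the log2 scale this was −2.59 ± 0.83 (edgeR adjusted p = 0.0418). The call ended without any 1 of these 6 libraries or day 35 vehicle replicate 1 (−2.38 to −2.77, adjusted p from 0.0506 to 0.106), and with library size as the only scaling (−2.21, adjusted p = 0.069). The rate of olfactory reads alone would put 28.5 to 39.6 counts on a gene of its length in the day 3 hormone libraries, more than were counted. With that background subtracted the 3 hormone libraries are at 0, so the fitted value for the hormone (−9.59) is no bound. The same holds for the values of the ages under the hormone (7.02, edgeR adjusted p = 0.0278) and of the difference between the hormone responses (9.56, adjusted p = 0.0436), which passed with that subtraction only. At day 35 its libraries held 23, 25 and 6 counts in vehicle and 68, 9 and 6 in hormone cells (−0.03 ± 0.80, adjusted p = 0.994). The gene has 2 rows in the files, summed here, the second with 0 to 34 counts a library.

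*Ptger1* (0.31 ± 0.20 at day 3 and 0.15 ± 0.20 at day 35) and *Ptger2* (−0.64 ± 0.39 and 0.10 ± 0.40) did not pass at either age. For *Ptger2* the day 3 libraries were 6.05, 8.50 and 6.90 CPM against 3.24, 4.79 and 5.74 CPM, with the hormone libraries lower. For *Ptger1* they were 16.1, 19.7 and 14.6 CPM against 18.6, 21.2 and 22.6 CPM, which overlapped. With library size as the only scaling *Ptger1* passed as higher at day 3 (0.69, edgeR adjusted p = 0.0242). *Ptger3* had 22, 0 and 12 counts in vehicle and 4, 19 and 50 in hormone cells at day 3, and 17, 5 and 25 against 0, 0 and 4 at day 35. On its length the olfactory rate would give 24.4 to 33.9 counts in the day 3 hormone libraries. *Ptgds* had 0 counts in 10 of the 12 libraries, 8 in day 3 hormone replicate 1 and 18 in day 35 hormone replicate 2, both among the libraries with more olfactory reads.

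**Figure D2:**
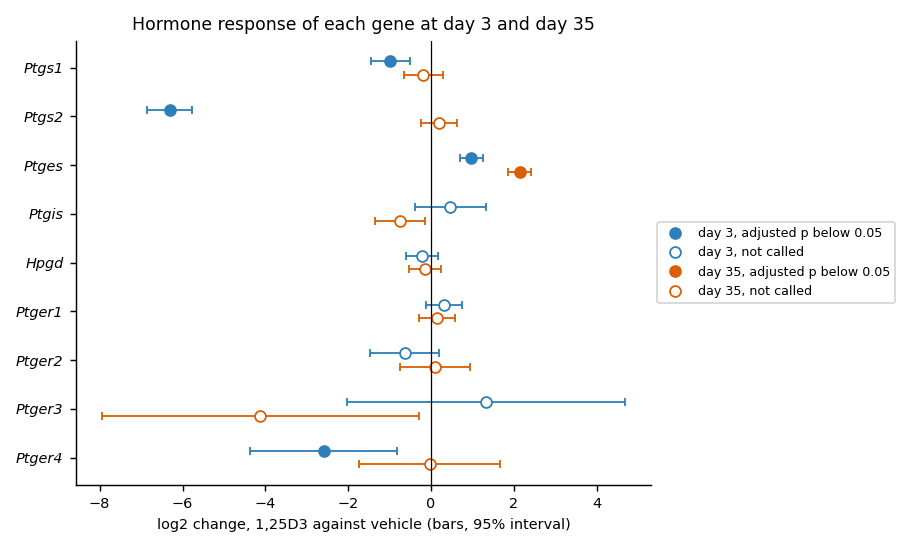
Log2 change with 1,25(OH)2D3 against vehicle (x axis) for the 9 members tested (y axis), at day 3 in blue and day 35 in orange, with 95% intervals and filled points for adjusted p below 0.05. *Ptgs2* stands at −6.31 at day 3 and 0.19 at day 35, and *Ptges* at 0.97 and 2.14.

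Of the 9 members tested, 4 were called at day 3 (*Ptges* higher, *Ptgs1*, *Ptgs2* and *Ptger4* lower), where 20.5% of all genes were called (11.4% higher, 9.09% lower). Without day 3 hormone replicate 3, the library with adipocyte transcripts, there were 3, *Ptger4* being lost. At day 35 there was 1, *Ptges*, beside 4.56% of all genes (2.41% higher, 2.14% lower). The difference between the ages was called for *Ptgs2* and *Ptges*, both positive, beside 7.08% of all genes (4.14% higher, 2.94% lower). The median log2 change of the 9 was −0.21 at day 3 and −0.03 at day 35, beside 0.26 and 0.02 over all genes. The day 3 split of all genes, 2278 higher and 1824 lower, became 4228 and 594 with library size as the only scaling, which put the median of all genes at 0.65. For the difference between the ages the split of 831 and 589 became 481 and 1481. The directions of *Ptgs2*, *Ptgs1*, *Ptger4* and *Ptges* at day 3 were the same under it.

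**Figure D3:**
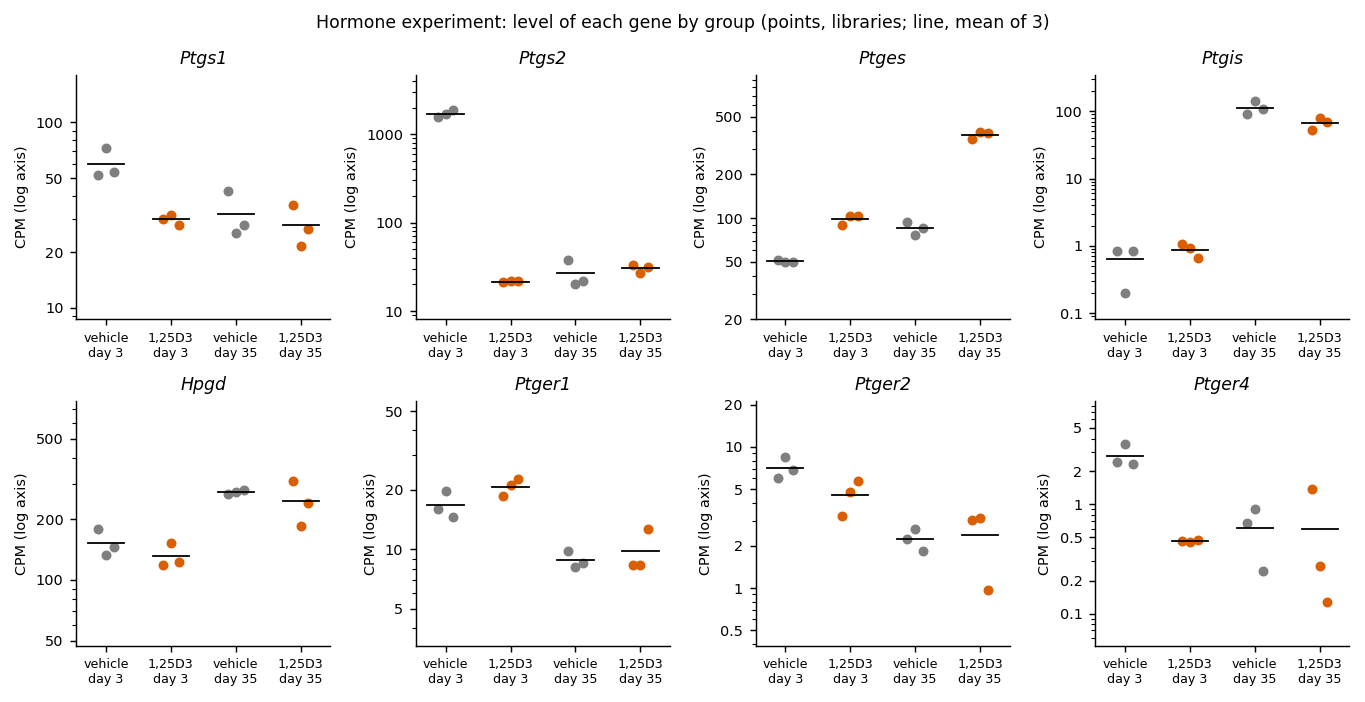
Level in CPM (y axis, log scale, own range for each gene) in the 4 groups of the hormone experiment (x axis), vehicle in grey and 1,25(OH)2D3 in orange, with a point per library and a line at the mean of 3. *Ptgs2* is high in day 3 vehicle cells alone (1713 CPM), *Ptges* is highest in day 35 hormone cells (376 CPM), and *Ptgis* separates the ages (0.635 to 0.883 CPM against 67.1 to 113 CPM).

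Vehicle cells changed between day 3 and day 35 as well, and 7 of the 9 members were called, beside 29.9% of all genes (15.5% higher, 14.5% lower). *Ptgis* went from 35, 9 and 37 counts to 3057, 3875 and 2672, a log2 change of 7.47 ± 0.40 (178-fold, edgeR adjusted p = 3.94e-09). *Hpgd* rose from 178, 133 and 145 CPM to 267, 274 and 278 CPM (0.85 ± 0.18, adjusted p = 0.0022) and *Ptges* by 0.76 ± 0.13 (adjusted p = 0.000352). *Ptgs2* fell by 6.00 ± 0.25 (adjusted p = 4.12e-10), *Ptgs1* by 0.89 ± 0.22 (adjusted p = 0.0061), *Ptger2* by 1.69 ± 0.40 (adjusted p = 0.00498) and *Ptger1* by 0.93 ± 0.21 (adjusted p = 0.00273). *Ptger4* stood at −2.19 ± 0.82 (adjusted p = 0.0566), and passed without any 1 of the day 35 hormone libraries (−2.17, adjusted p from 0.0198 to 0.039) and with DESeq2 (−2.18, adjusted p = 0.0209).

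The 7 calls in vehicle cells and the calls in untreated cells come from separate libraries. *Ptgs2*, *Ptgs1*, *Ptger1* and *Ptger2* were called lower and *Ptgis* higher at day 35 in both. For *Ptger1* the untreated call depended on the scaling, and in centred libraries its change was 0.09 (limma adjusted p = 0.819). *Hpgd* and *Ptges* were called higher in vehicle cells alone, and in untreated cells only after centring, quantile normalization or, for *Hpgd*, rescaling to rows other than ribosomal RNA (0.61, limma adjusted p = 0.00511). Whether these changes differ between the experiments was not tested.

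Under the hormone the comparison of the ages gave 4 calls of 9, beside 27.6% of all genes (14.7% higher, 12.9% lower). With library size as the only scaling the split of all genes went from 2947 higher and 2586 lower to 1639 and 4563. *Ptges* (1.93 ± 0.13, edgeR adjusted p = 6.05e-08), *Ptgis* (6.25 ± 0.38, adjusted p = 1.91e-08) and *Hpgd* (0.91 ± 0.18, adjusted p = 0.00154) were higher at day 35 and *Ptger1* lower (−1.09 ± 0.20, adjusted p = 0.000967). The *Ptgis* change starts from few reads at day 3, part of which the olfactory rate would give. It ranged from 5.89 to 6.97 over the alternatives, background subtraction among them. *Ptgs2* stood at 0.50 ± 0.20 (adjusted p = 0.0837), from 21.1 to 21.9 CPM against 26.7 to 33.2 CPM. It passed with DESeq2 (0.48, adjusted p = 0.037) and without some single libraries: replicate 1 or 3 of day 3 vehicle (0.63, adjusted p = 0.0277 and 0.0351), replicate 1, 2 or 3 of day 35 vehicle (0.50, 0.63 and 0.63, adjusted p = 0.0137, 0.0208 and 0.0266) and day 35 hormone replicate 2 (0.70, adjusted p = 0.024). *Ptgs1* (−0.10 ± 0.22, adjusted p = 0.774) and *Ptger2* (−0.95 ± 0.40, adjusted p = 0.0934) did not pass, though *Ptger2* did with library size as the only scaling (−1.30, adjusted p = 0.0301). *Ptger3*, at −4.40 ± 1.81 (adjusted p = 0.0864) from 73 counts against 4, passed with DESeq2 (−4.61, adjusted p = 0.0183), without day 3 vehicle replicate 2 (−4.39, adjusted p = 0.0412) or day 35 hormone replicate 3 (−7.57, adjusted p = 0.0433), where the remaining day 35 hormone libraries are at 0.

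Per kilobase of exon the groups of the hormone experiment ranked the members differently. In day 3 vehicle cells *Ptgs2* led (374 ± 36.7 CPM per kilobase), above *Hpgd* (90.3 ± 14.1), *Ptgs1* (15.3 ± 2.91) and *Ptges* (12.8 ± 0.213). In day 3 hormone cells *Hpgd* led (77.8 ± 10.8), followed by *Ptges* (25.1 ± 2.18), *Ptgs1* (7.74 ± 0.526) and *Ptgs2* (4.71 ± 0.095), none of which overlapped a neighbour. In day 35 vehicle cells the order was *Hpgd* (162 ± 3.33), *Ptgis* (43.9 ± 9.90), *Ptges* (21.7 ± 2.25), *Ptgs1* (8.24 ± 2.39) and *Ptgs2* (5.83 ± 2.14), the last pair overlapping. With the hormone at day 35 *Ptges* (95.7 ± 5.63) stood above *Ptgis* (26.2 ± 5.25) and below *Hpgd* (146 ± 36.6). The 4 EP receptor genes lay at 3.81 CPM per kilobase or less in every group.

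**Figure D4:**
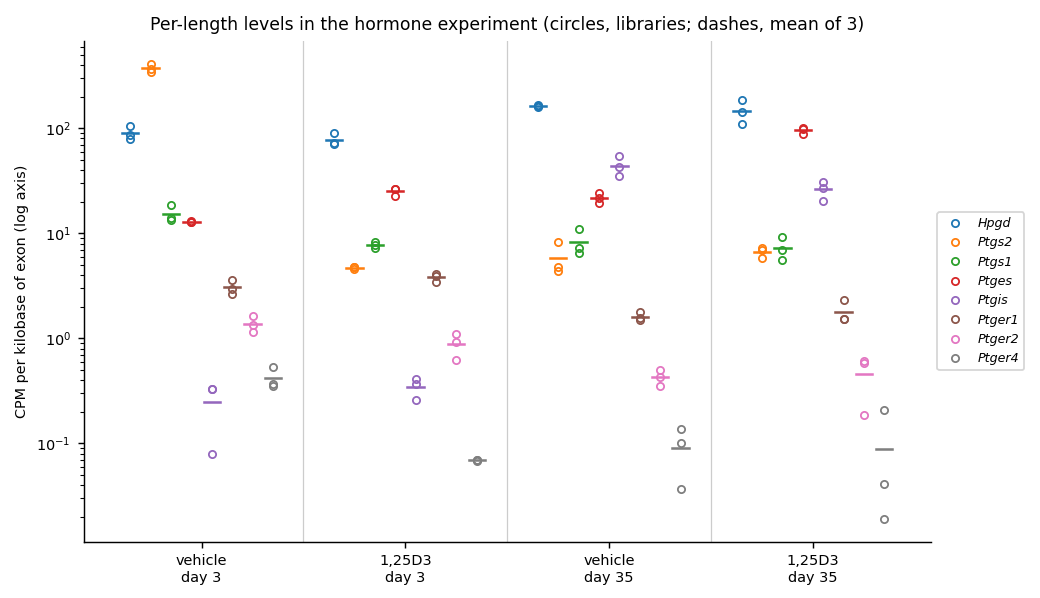
Level in CPM per kilobase of exon (y axis, log scale) of 8 members in the 4 groups of the hormone experiment (x axis), with a circle per library and a dash at the mean of 3. *Ptgs2* lies above *Hpgd* only in day 3 vehicle cells (374 against 90.3), and *Ptges* reaches 95.7 in day 35 hormone cells.

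Of 24 other genes of the pathway (phospholipases, other synthases, transporters, degrading enzymes and the other prostanoid receptors), 10 passed the filter in untreated cells and 21 in the hormone experiment. In untreated cells of day 35 against day 3, 2 of 10 were higher and 3 lower, with a median of −0.20 beside −0.69 over all genes, of which 57.1% were called by limma, 5.63% higher and 51.5% lower. *Pla2g12a*, a secreted phospholipase gene, rose from 1.47 ± 0.700 to 4.92 ± 1.52 RPKM (1.49 ± 0.30, limma adjusted p = 0.00034). *2810405K02Rik*, the prostamide and prostaglandin F synthase gene *Fam213b*, rose from 0.119 ± 0.0785 to 0.767 ± 0.356 RPKM (1.00 ± 0.23, adjusted p = 0.000892). *Pla2g4a*, the cytosolic phospholipase that frees arachidonic acid, fell by 1.04 ± 0.32 (adjusted p = 0.0105), the reductase gene *Ptgr1* by 1.21 ± 0.30 (adjusted p = 0.00226) and *Ptges2*, another prostaglandin E synthase gene, by 0.73 ± 0.21 (adjusted p = 0.00719). The last value lies near the −0.69 of all genes. In centred libraries *Pla2g4a* was −0.21 (limma adjusted p = 0.575), *Ptgr1* −0.38 (adjusted p = 0.137) and *Ptges2* 0.10 (adjusted p = 0.701). With sequencing run as a term, which leaves day 35 to its replicate 1, they were −0.96, −0.80 and −0.50. *Pla2g4a* (−0.22, adjusted p = 0.558) and *Ptges2* (0.14, adjusted p = 0.558) also lost their calls with quantile normalization, and after rescaling (−0.75, adjusted p = 0.0532, and −0.44, adjusted p = 0.0658). Without day 35 replicate 3 *Pla2g4a* was −0.84 (adjusted p = 0.0629).

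In vehicle cells of day 35 against day 3, 7 of 21 were higher and 3 lower, with a median of 0.43 beside 0.17 over all genes, of which 29.9% were called by edgeR, 15.5% higher and 14.5% lower. *2810405K02Rik* (2.01 ± 0.30, edgeR adjusted p = 0.000117), *Pla2g12a* (2.45 ± 0.57, adjusted p = 0.00375) and the carbonyl reductase gene *Cbr1* (0.77 ± 0.17, adjusted p = 0.00323) rose. *Ptgr1* fell by 1.01 ± 0.24 (adjusted p = 0.00433). *Slco2a1*, the prostaglandin transporter gene, fell by 4.04 ± 0.75 (adjusted p = 0.000692), from 157, 922 and 385 counts to 42, 13 and 7. *Ptges2* was higher (0.84 ± 0.24, edgeR adjusted p = 0.0138), a call that ended without day 3 vehicle replicate 3 (0.77, adjusted p = 0.0513) or day 35 vehicle replicate 2 (0.77, adjusted p = 0.053).

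With the hormone 2 of 21 were higher and 1 lower at day 3, and 1 was higher at day 35, with medians of −0.04 and −0.05 beside 0.26 and 0.02 over all genes. Over all genes edgeR called 11.4% higher and 9.09% lower at day 3, and 2.41% higher and 2.14% lower at day 35. The one called at both ages was *Pla2g5*, a secreted phospholipase gene. At day 35 it rose from 28, 43 and 28 counts to 884, 716 and 802 (16.1-fold, 4.01 ± 0.39, edgeR adjusted p = 3.49e-05). At day 3 it went from 0 counts in the 3 vehicle libraries to 22, 19 and 10. The olfactory rate alone would give 13.3, 12.4 and 17.2 counts on its length in those hormone libraries, more than were counted in replicate 3, so no fold is given. *Pla2g4a* was −0.48 ± 0.14 at day 3 (edgeR adjusted p = 0.0336). That call ended without any 1 of the 3 hormone libraries or vehicle replicate 3 (−0.43 to −0.52, adjusted p from 0.057 to 0.092). It also ended with DESeq2 size factors (−0.40, adjusted p = 0.0515), library size as the only scaling (−0.09, adjusted p = 0.588), the background subtracted (−0.32, adjusted p = 0.123), or only the libraries compared in the fit (−0.43, adjusted p = 0.0536). The prostacyclin receptor gene *Ptgir*, named here after its values were seen, went at day 3 from 24, 8 and 31 counts to 59, 57 and 149 (2.39 ± 0.71, edgeR adjusted p = 0.0328), where the olfactory rate would give 14.3 to 19.9. The 149 counts are in replicate 3, the library that stood apart in adipocyte genes, and without it the change was 1.90 (adjusted p = 0.146). The *Ptgir* call also ended without any 1 of the other 5 libraries compared or day 35 vehicle replicate 2 (2.00 to 2.66, adjusted p from 0.0503 to 0.0712), with the background subtracted (2.41, adjusted p = 0.0765) and with the replicate block (2.40, adjusted p = 0.0526).

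Over all libraries the genes whose course was most like that of *Ptgs2* were *Ankrd28*, *Cd109* and *Ankrd1*, each with a mean Pearson r of 0.98 over the 18 untreated and the 12 hormone-experiment libraries. For *Ptgis* they were the osteocalcin gene *Bglap*, the bone sialoprotein gene *Ibsp* and *Galnt3* (0.97 each). For *Ptges* they were *Tm7sf3* (0.93), *Ltbp2* and *Klhdc7a* (0.91 each). The points share days, runs and hormone groups, so these are descriptions of likeness only.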

How the data were processed

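Per the submitters' processing notes, reads were aligned with TopHat to mm9. The aligner version, the counter and its annotation are not given in the sources used here. The authors deposited RPKM for the 18 untreated libraries, a unit read from the values. For the other 12 libraries the file names say RPKM, yet each deposited value is a whole number, so those values were taken as raw counts. RNA was depleted of ribosomal RNA and library kits were directional, per the labels' protocols, with an Illumina kit for untreated cells and ScriptSeq v2 for the hormone experiment.

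The untreated series went through limma 3.58.1 (trended moderation, 12 residual degrees of freedom) on log2(RPKM + 0.5), for genes that reached 1 RPKM in 3 or more libraries, taking the row with the highest mean for a symbol with several rows. Counts went through edgeR 4.0.16 (quasi-likelihood, filterByExpr, TMM, 8 residual degrees of freedom) after summing per symbol. CPM use TMM library sizes. DESeq2 1.42.0 was an alternative, in R 4.3.3. Tests were two-sided, adjusted by Benjamini-Hochberg over all genes tested, and called below 0.05. Other alternatives changed the pseudocount, filter, scaling, run, block and libraries used. Per-kilobase values use exon lengths of GENCODE M21 (GRCm38). Sequences come from a RefSeq promoter table (GRCm38.p6) that held 8 of the 10 members, all but *Ptgis* and *Ptger1*.

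The members and lists were chosen with earlier results of these data known. All 10 members are named. Of the other pathway genes, the 8 with the smallest adjusted p in the comparisons of day 35 with day 3 (untreated and vehicle) or of hormone with vehicle are named, and the 3 most similar genes for 3 members. Same-numbered untreated libraries of day 3 and of days 7 to 28 deviated together over 9933 genes (r from 0.18 to 0.58). In no pair of days was the same-numbered library the best match for every replicate. Replicate 1 of each day shared run 230, so paired cultures and a shared run cannot be told apart there. In the hormone experiment same-numbered libraries did not all deviate together (−0.50 to 0.55). Both tests were checked on simulated data. Beyond the word triplicate, the labels do not say how the replicate cultures were kept apart, so p-values measure the spread between these libraries. Counting floors cover counting error only. One item that bears on *Ptger1* is not reported here.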

Additional observations from a re-analysis of the deposited data

Results flagged for a closer look

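The hormone response of *Ptgs2* differed between the ages by an interaction test. The log2 change with 1,25(OH)2D3 was −6.31 ± 0.25 at day 3 and 0.19 ± 0.20 at day 35, a difference of 6.50 ± 0.31 (edgeR adjusted p = 1.75e-08). All 3 hormone libraries lay below all 3 vehicle libraries at day 3, and the groups overlapped at day 35. Over 18 alternatives the difference ranged from 6.13 to 6.85.

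The response of *Ptges* differed in size but not in direction. It was 0.97 ± 0.13 at day 3 and 2.14 ± 0.13 at day 35, a difference of 1.17 ± 0.18 (edgeR adjusted p = 0.000967). All hormone libraries lay above all vehicle libraries at both ages, and the difference ranged from 0.82 to 1.35 over the alternatives.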

How the results depend on the processing

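Of 108 changes of members tested, 85 kept their side of the threshold under every alternative run, and 63 of these kept their sign as well. Among 2546 alternative values, 60 lost a call and 49 gained one with the sign kept, and 1 lost its call with the sign turned. The sign was opposite in 62 values from 26 changes, of which 1 was a called change: *Ptger1* at untreated day 35 against day 3 was 0.09 in centred libraries. With the sequencing run in the model, *Ptger2* lost its call at day 7 (−0.66, limma adjusted p = 0.0508), and the changes at day 35 rest on day 35 replicate 1. Leaving out 1 library gave 4 to 7 calls between successive untreated days, against 7 in the main fit. Against day 3 it gave 3 to 4 calls at day 7, 3 to 4 at day 14, 5 to 6 at day 21, 6 in each case at day 28 and 4 to 5 at day 35. The hormone gave 3 to 4 calls at day 3 and 1 to 2 at day 35. The difference between its responses gave 2 to 3, vehicle day 35 against day 3 gave 7 to 8 and the same ages under the hormone 4 to 5. The shares of all genes called in these fits are not given, so the counts are no result about the members as a set. With the replicate number as a block, *Ptger4* was lost at day 3 under the hormone (−2.57, edgeR adjusted p = 0.0507) and gained in vehicle cells (−2.36, adjusted p = 0.0498). *Ptgis* was gained between untreated days 28 and 35 (0.84, limma adjusted p = 0.0391). The other 105 changes kept their side under the block. The cause of these changes was not tested. Counts of a few reads limit *Ptgds*, *Ptger3* and *Ptger4*.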
